A study of Homo sapiens with 6 samples.

Results

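CD24 and a set of further genes that are widely used to recognise tumour-initiating, or stem-like, cells of head and neck and other carcinomas were described in CAL-27 cells. The set held the surface proteins CD24, CD44, PROM1, EPCAM and CD9, the receptors NGFR, LGR5 and MET, the enzyme ALDH1A1 and the chromatin protein BMI1. Probes were taken when their RefSeq transcript belonged to 1 of these 10 genes, out of 19740 named genes on the array, which gave 12 of 25771 named probes. The set was built around CD24 because of its measured values in shXBP-1s and shCtrl cells. CD24 was thus selected on the comparison described here, so the differences of all members are given as a description without a test.

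CAL-27, an established human line, was derived from a squamous cell carcinoma of the tongue. Cells stably transduced with an shRNA that targets XBP-1s (shXBP-1s) were compared with cells given the negative control (shCtrl), with 3 samples in each group. Their total RNA was measured on Agilent arrays with Cy3 as the only dye, 1 array per sample. XBP-1s is the transcription factor made from spliced XBP1 mRNA in the unfolded protein response, and the comparison asked which transcripts differed when its shRNA was present. The sources used here do not say whether the transduced cells were a clone or a pool. The study's methods state in general that legends count independent experiments, but no label says that these replicates were separate cultures, so errors may be technical.

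CD24 is a small, heavily glycosylated protein held in the membrane by a glycosylphosphatidylinositol (GPI) anchor, and it is a ligand of P-selectin and of the inhibitory receptor Siglec-10. In carcinomas, combinations of CD24 and CD44 on the cell surface, prominin-1 (PROM1, CD133), the low-affinity neurotrophin receptor (NGFR, CD271) and aldehyde dehydrogenase activity are each used to sort cells that start tumours. Which combination marks such cells depends on the tissue, and these markers are also found on normal epithelial cells.

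Levels below are log2 signals relative to the 75th percentile of the same array, given as mean ± SD (n = 3), and signals are the background-subtracted intensities of the scanner before normalization. The 75th percentile was 687.4 to 761.3 in shCtrl and 792.0 to 983.4 in shXBP-1s, so a gene with equal intensities in both groups has a lower normalized level in shXBP-1s. A limma fit over 27624 probes took those whose signal passed the scanner's test for being well above background in every sample of shCtrl, of shXBP-1s or of both. No spot was saturated. A probe was called at a Benjamini-Hochberg adjusted p below 0.05 and a difference of at least 2-fold. XBP1 itself, the check of the labels, had signals of 2534.2, 2743.1 and 2760.7 in shCtrl and of 695.3, 617.1 and 550.8 in shXBP-1s. Arrays 2 and 3 of shCtrl shared a scan, and shCtrl array 1 was scanned with the 3 shXBP-1s arrays. A within-scan difference is therefore set against shCtrl array 1 alone. All 8 squamous epithelial markers checked (KRT5, KRT14, KRT17, TP63, SFN, CDH1, DSG3 and PKP1) were well above background on all 6 arrays. So were 82.1% to 84.8% of all spots of an array. Passing does not tell cell types apart, since the markers of other cell types passed too.

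CD24 had signals of 165.2, 174.4 and 156.2 on the shCtrl arrays and of 4743.2, 5339.6 and 5806.6 on the shXBP-1s arrays. All 3 shXBP-1s arrays lay far above all 3 shCtrl arrays. The level went from -2.15 ± 0.11 to 2.57 ± 0.30, a log2 fold change of 4.73 (SE 0.14) or 26.5-fold. Of all tested probes, 2 had a higher log2 fold change. Within the scan that holds both groups the difference was 4.63. Under the other scalings and background corrections it lay between 4.01 and 4.78. RNA of whole cultures was measured, so more CD24 RNA per cell and more cells with CD24 cannot be told apart. CD24 has pseudogene copies in the genome, and the sequence of the array probe (assigned to NM_013230) was not used here, so the share of signal from near-identical copies was not tested. The summed signal of the 8 squamous markers, before scaling, lay between 57700 and 60697 in shCtrl and between 104835 and 109774 in shXBP-1s. That sum was mostly SFN and CDH1. After scaling, KRT5 (log2 fold change 1.43), KRT14 (1.58), KRT17 (1.53) and DSG3 (1.17) were called higher. TP63 (0.93), SFN (0.71), CDH1 (0.13) and PKP1 (-0.02) were not called. The part of these markers in the CD24 difference was not tested.

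The promoters of CD24 are shown because this member differed most. XBP-1s and its relatives are known to bind DNA elements around an ACGT core, so the letters ACGTG were searched on both strands in the 250 bases before each annotated start (RefSeq, GRCh38.p14). The longer element TGACGTG, which contains them, was searched in the same way. The table held 16 windows for 7 of the 10 members, CD24, CD44, PROM1, ALDH1A1, CD9, BMI1 and MET. ACGTG was in 4 of the 16 windows, those of CD44, BMI1 and PROM1, against 18.5% of all 35116 windows of that length. TGACGTG was in 0 of the 16 windows, against 1.68% of all windows. Of the 3 CD24 windows, none held ACGTG, and a pair that do not overlap each other are printed in lower case, 5′ to 3′ on the minus strand. The first, chr6:106975628-106975877, has 65.6% G and C, and the second, chr6:106974040-106974289, has 64% G and C. The second holds the core ACGT followed by T, and ACGT without the G was not counted over the windows.
CD24 upstream start: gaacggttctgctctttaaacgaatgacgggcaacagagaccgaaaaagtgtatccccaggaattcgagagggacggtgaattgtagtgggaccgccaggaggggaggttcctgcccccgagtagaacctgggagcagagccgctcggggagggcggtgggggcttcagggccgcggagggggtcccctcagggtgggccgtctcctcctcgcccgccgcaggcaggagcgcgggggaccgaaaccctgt
CD24 downstream start: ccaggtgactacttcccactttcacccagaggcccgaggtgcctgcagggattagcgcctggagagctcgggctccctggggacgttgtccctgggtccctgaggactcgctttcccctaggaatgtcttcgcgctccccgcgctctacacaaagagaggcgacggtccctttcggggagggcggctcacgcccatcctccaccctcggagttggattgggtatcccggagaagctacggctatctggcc

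**Figure D1:**
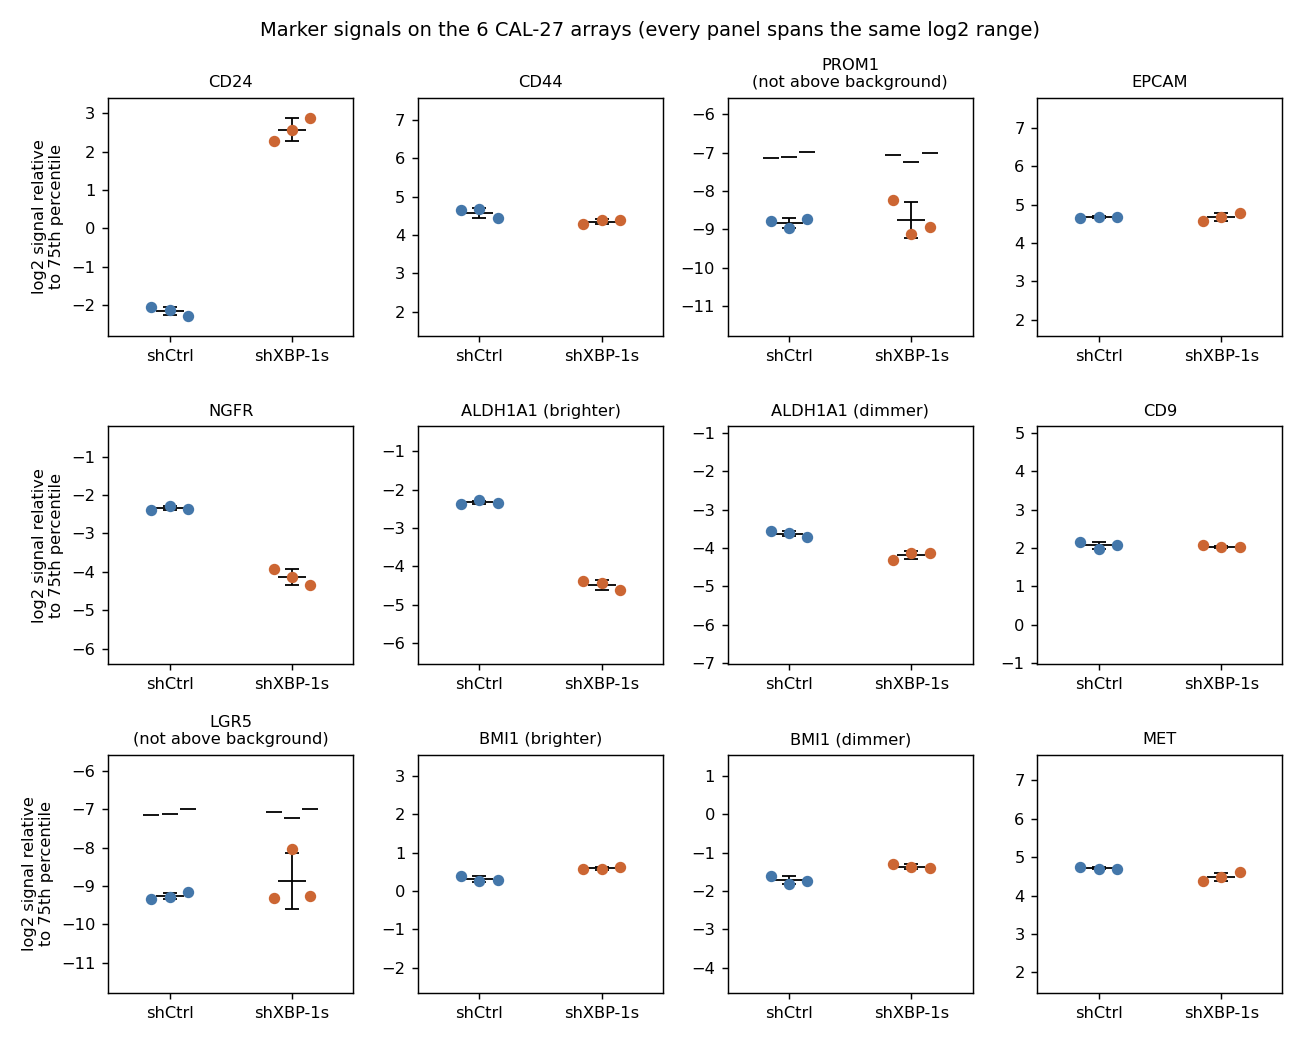
Log2 signal relative to the 75th percentile of the array (vertical axis) for each of the 12 marker probes on the 3 shCtrl arrays (blue) and the 3 shXBP-1s arrays (orange). Points are arrays, bars are mean ± SD, and short marks in the PROM1 and LGR5 panels show the lowest signal well above background on each array. CD24 is far higher in shXBP-1s, NGFR and the brighter ALDH1A1 probe are lower, and CD44, EPCAM, CD9, BMI1 and MET lie close together in both groups.

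Of the 10 member probes in the fit, CD24 was called higher, where 2.29% of all tested probes were called higher. NGFR and the brighter ALDH1A1 probe were called lower, where 2.61% of all tested probes were called lower. The groups did not overlap for 8 of the 10 member probes (3 higher and 5 lower in shXBP-1s), where 52.4% of all tested probes did not overlap. The set was built on this comparison, so nothing is read from these shares. The median log2 fold change of the 10 probes was -0.13, beside -0.02 over all tested probes, and the member differences ranged from -2.15 to 4.73.

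CD44, the hyaluronan receptor, had signals of 17304.8, 19300.5 and 16281.7 in shCtrl and of 19016.7, 18622.7 and 16513.0 in shXBP-1s. These intensities overlapped. After scaling the level was 4.58 ± 0.13 in shCtrl and 4.35 ± 0.06 in shXBP-1s. The log2 fold change was then -0.24 (SE 0.07), and the groups then did not overlap. The probe was not called, and under other scalings the difference lay between -0.23 and -0.02. CD24 and CD44 are often read as a pair in sorting. CD24 was thus 26.5-fold higher in shXBP-1s, while CD44 was 1.18-fold lower there after scaling only. Before scaling, the mean CD44 intensity in shXBP-1s was 1.02 times that in shCtrl. The probe is assigned to NM_000610 and does not tell which CD44 splice forms were made.

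EPCAM, the epithelial adhesion molecule, had signals of 17109.3, 19476.1 and 19404.0 in shCtrl and of 23448.5, 23008.0 and 21718.5 in shXBP-1s. The raw intensities were higher on every shXBP-1s array. Relative to the 75th percentile the groups overlapped, at 4.67 ± 0.02 and 4.68 ± 0.10, with a log2 fold change of 0.01 (SE 0.06). The value therefore turned on the scaling, and lay between 0.02 and 0.21 under the others. CD9, a tetraspanin that organises membrane proteins, had signals of 3062.7, 3004.1 and 3209.4 in shCtrl and of 4128.9, 3623.1 and 3206.0 in shXBP-1s. Its levels overlapped at 2.07 ± 0.09 and 2.04 ± 0.03. The log2 fold change of CD9 was -0.04 (SE 0.05), and its sign changed between scalings (-0.04 to 0.03).

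PROM1, a pentaspan protein of membrane protrusions, had signals of 1.6, 1.5 and 1.8 in shCtrl and of 3.3, 1.6 and 1.6 in shXBP-1s. LGR5, an R-spondin receptor and marker of intestinal stem cells, had signals of 1.1, 1.2 and 1.3 in shCtrl and of 1.5, 3.4 and 1.3 in shXBP-1s. Neither probe was well above background on any array, where the lowest signal that was so lay between 4.86 and 7.35. No fold change is given for them.

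NGFR, the receptor that binds all neurotrophins with low affinity, had signals of 132.5, 157.4 and 147.3 in shCtrl and of 64.7, 50.7 and 38.9 in shXBP-1s. All shXBP-1s arrays lay below all shCtrl arrays. The level went from -2.34 ± 0.05 to -4.14 ± 0.21, a log2 fold change of -1.80 (SE 0.11), which is 3.49-fold lower. Within the shared scan the difference was -1.76. With normexp background correction and quantile normalization it was -0.95, and the probe was then not called.

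MET, the receptor tyrosine kinase for hepatocyte growth factor, was measured by 1 probe spotted 10 times on each array. Its signals were 18341.6, 19836.9 and 19576.6 in shCtrl and 20616.1, 19831.5 and 19234.4 in shXBP-1s, and these intensities overlapped. After scaling the level was 4.71 ± 0.02 in shCtrl and 4.49 ± 0.11 in shXBP-1s. The log2 fold change was -0.22 (SE 0.06). The probe was not called, the scaled groups did not overlap, and other scalings gave -0.22 to -0.08. The repeated spots show the precision within an array. Their SD on the log2 scale lay between 0.0229 and 0.0787 per array, with 1 flagged spot left out on shCtrl array 1. The shXBP-1s arrays had means of 4.39, 4.47 and 4.6 over their spots.

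ALDH1A1, a retinaldehyde dehydrogenase whose activity is used to sort stem-like cells, was measured by a pair of probes, both assigned to NM_000689. The brighter probe had signals of 133.1, 156.5 and 147.5 in shCtrl and of 47.0, 41.2 and 32.1 in shXBP-1s. Its level went from -2.34 ± 0.05 to -4.48 ± 0.13, a log2 fold change of -2.15 (SE 0.09), which is 4.43-fold lower. The dimmer probe had signals of 58.0, 62.4 and 58.0 in shCtrl and of 49.8, 51.1 and 45.1 in shXBP-1s. Its level went from -3.63 ± 0.07 to -4.19 ± 0.10, a log2 fold change of -0.56 (SE 0.09), and it was not called. Both probes were lower on every shXBP-1s array than on any shCtrl array. The sizes differed, since the log2 difference between the brighter and the dimmer probe was 1.29 ± 0.08 in shCtrl and -0.29 ± 0.20 in shXBP-1s. With normexp followed by quantile normalization the brighter probe gave -1.10 and the dimmer -0.25, and normexp alone gave -1.60 and -0.86. The ALDH1A1 promoter is printed because this gene had the lowest log2 fold change of the set. Its window, chr9:72953054-72953303 on the minus strand, has 38.4% G and C and holds no ACGTG.
ALDH1A1 promoter: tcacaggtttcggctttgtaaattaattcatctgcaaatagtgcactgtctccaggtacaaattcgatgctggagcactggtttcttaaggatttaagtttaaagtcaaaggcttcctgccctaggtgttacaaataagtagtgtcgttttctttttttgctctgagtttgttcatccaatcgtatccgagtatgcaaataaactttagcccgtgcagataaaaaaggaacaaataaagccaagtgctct

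BMI1, a subunit of Polycomb repressive complex 1 that supports self-renewal of stem cells, also had a pair of probes, assigned to NM_005180. The brighter probe had signals of 903.9, 911.7 and 924.1 in shCtrl and of 1463.1, 1325.7 and 1224.9 in shXBP-1s. The dimmer probe had signals of 225.2, 217.0 and 224.8 in shCtrl and of 400.4, 343.9 and 297.7 in shXBP-1s. Both were higher on every shXBP-1s array than on any shCtrl array, before and after scaling. The level of the brighter probe went from 0.32 ± 0.07 to 0.59 ± 0.03, a log2 fold change of 0.27 (SE 0.05). That of the dimmer probe went from -1.72 ± 0.10 to -1.36 ± 0.06, a log2 fold change of 0.36 (SE 0.07), and neither was called. The probes differed from each other by 2.04 ± 0.03 in shCtrl and 1.95 ± 0.09 in shXBP-1s, which are within their spread. Across scalings the brighter probe gave 0.26 to 0.33 and the dimmer 0.11 to 0.42. The BMI1 promoter at chr10:22320849-22321098, plus strand, is printed because it holds ACGTG on both strands, as the palindrome in capitals. The letters ACGTG on the printed strand begin 69 bases before the annotated start, and a match of letters is not a measured binding site.
BMI1 promoter: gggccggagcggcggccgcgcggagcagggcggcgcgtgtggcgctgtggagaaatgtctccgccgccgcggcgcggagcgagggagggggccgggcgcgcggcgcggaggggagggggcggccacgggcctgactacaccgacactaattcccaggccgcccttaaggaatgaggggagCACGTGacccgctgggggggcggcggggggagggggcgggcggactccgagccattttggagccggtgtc

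**Figure D2:**
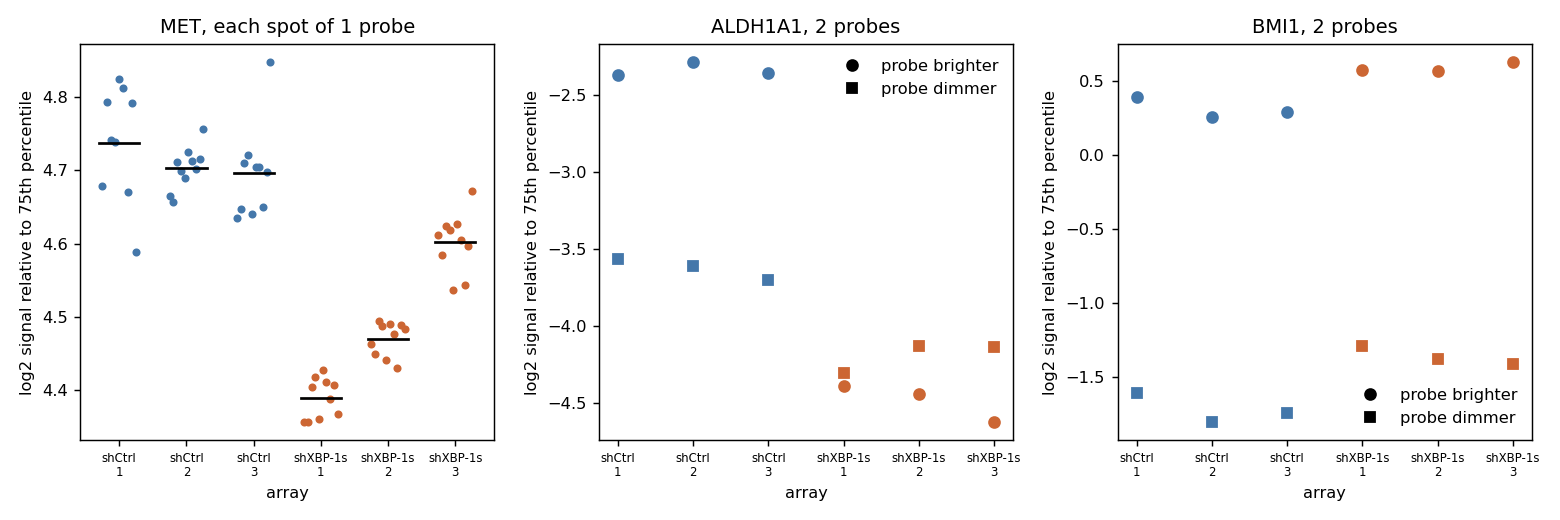
Repeated measurements of 3 markers on the 6 arrays, as log2 signal relative to the 75th percentile (vertical axis). Left, every unflagged spot of the MET probe with the array mean as a line; middle and right, the brighter (circles) and dimmer (squares) probes of ALDH1A1 and BMI1, with shCtrl in blue and shXBP-1s in orange. The MET axis spans a narrow range, both ALDH1A1 probes are lower and both BMI1 probes are higher on the shXBP-1s arrays, and the ALDH1A1 probes differ in the size of the difference.

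**Figure D3:**
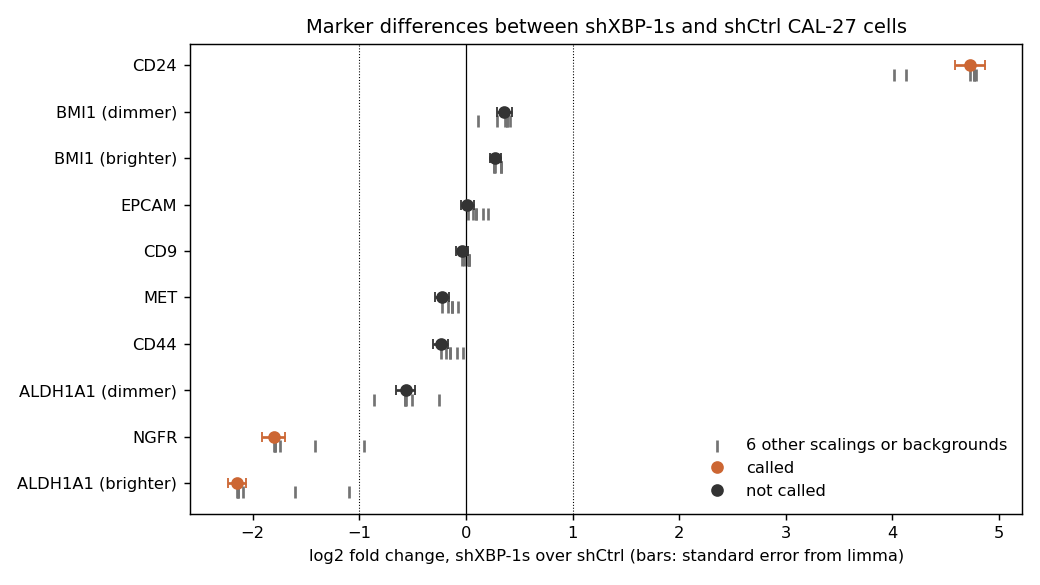
Log2 fold change of each tested marker probe, shXBP-1s over shCtrl (horizontal axis), with the standard error from limma as bars. Orange points were called and dark points were not, grey ticks show 6 other scalings or background corrections, and dotted lines mark 2-fold. CD24 (4.73) stands apart on the right, NGFR (-1.80) and the brighter ALDH1A1 probe (-2.15) on the left, and the other probes lie between -0.56 and 0.36.

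In the order of their differences, CD24 was followed by the BMI1 probes (0.36 and 0.27), EPCAM (0.01), CD9 (-0.04), MET (-0.22), CD44 (-0.24), the dimmer ALDH1A1 probe (-0.56), NGFR (-1.80) and the brighter ALDH1A1 probe (-2.15). The ranges of log2 fold change ± SE overlapped between the BMI1 probes, between EPCAM and CD9 and between MET and CD44. These probes were read on the same arrays, so the overlap is no test of their differences. The median size of a log2 fold change over all tested probes was 0.23, and MET and CD44 lay closest to it in size.

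The genes whose pattern was most like that of CD24 were looked for among 20815 probes of 16175 other genes that were well above background on all 6 arrays. Each probe was centred on its own shCtrl mean, and the mean absolute difference from CD24 over the 6 arrays was taken on the log2 scale. The nearest were IL24 (0.22), a cytokine of the IL-20 family, and KRT6A (0.29), a keratin of activated keratinocytes. SERPINB2 (0.31), an inhibitor of plasminogen activators, and the cornified envelope precursors SPRR2A (0.40) and SPRR1B (0.59) followed. IL24 had signals of 54.5, 52.2 and 53.3 in shCtrl and of 1358.5, 1303.3 and 1293.8 in shXBP-1s. KRT6A had signals of 205.1, 177.5 and 195.7 in shCtrl and of 4684.7, 4623.2 and 4284.2 in shXBP-1s. All 5 are near CD24 by construction, since a high difference between the groups makes up most of the distance, and their log2 fold changes were 4.35 for IL24, 4.28 for KRT6A, 5.08 for SERPINB2, 4.02 for SPRR2A and 3.70 for SPRR1B. Within shXBP-1s, the scaled levels of CD24 and these genes except SERPINB2 were lowest on array 1 and highest on array 3. The intensities of CD24, SPRR2A and SPRR1B kept this order, while those of IL24 and KRT6A ran the other way. EPCAM (4.58, 4.68 and 4.78) and MET (4.39, 4.47 and 4.60) had the same scaled order. It is thus not particular to CD24 and these genes. Members of the KRT6 and SPRR2 families have near-identical copies, and their probes may not tell them apart.

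**Figure D4:**
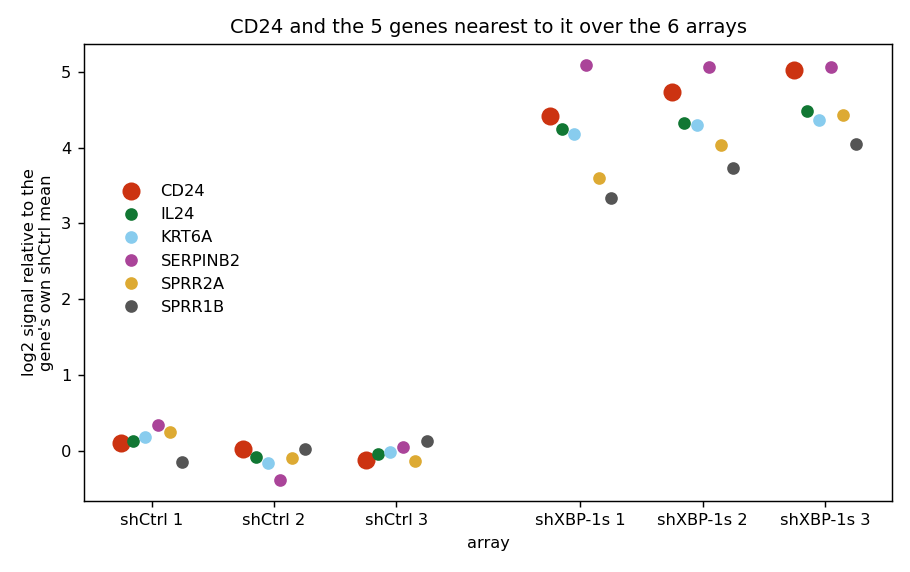
Log2 signal of CD24 and of the 5 genes nearest to it on each of the 6 arrays (horizontal axis), relative to the gene's own mean over the shCtrl arrays (vertical axis). Each point is 1 array, points of an array are set side by side for legibility, and replicates have no order. All 6 genes lie near 0 on the shCtrl arrays and above 3 on the shXBP-1s arrays.

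The binding partners, relatives and pathway genes of the markers were then read in the same fit, from 12 lists of 234 distinct genes. A gene was represented by its brightest tested probe. The lists were chosen with earlier results of these data known, so their counts, shares and adjusted p-values are given as a description. Of 213 tested genes, 6 were called higher and 12 lower in shXBP-1s (2.82% and 5.63%), where 2.3% and 2.88% of all 16821 tested genes were. Without a minimum fold, 40 rose and 69 fell at an adjusted p below 0.05 and 104 did not pass, where 18.9% of all tested genes rose and 27.5% fell. The median log2 fold change was -0.10 over these genes and -0.04 over all tested genes. Genes of the lists that are named below without being called were chosen after their values were seen, and some genes stand in more than 1 list. CD55, MSN and PHC3 kept their call under every alternative run. CBX7 lost its call when a gene was represented by its probes' mean (-0.46), and normexp followed by quantile normalization ended the calls of the others. Of 51 genes with several tested probes, 4 were called by another probe but not by the brightest (ALDH7A1, RSPO3, ITGA6 and DCLK1).

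Of 8 tested partners of CD24 (with P-selectin, Siglec-10, L1CAM and Src family kinases among them), 6 did not pass. LYN, a kinase that acts below CD24 in lymphocytes, rose by 0.23 on the log2 scale (SE 0.07, Benjamini-Hochberg adjusted p = 0.0258, limma). SIGLEC10 had a log2 fold change of -0.40 (SE 0.16, adjusted p = 0.0785) and did not pass.

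Of 42 tested GPI-anchored proteins other than CD24, 2 were called higher and 4 lower, 7 rose and 15 fell without a minimum fold, and 20 did not pass. SEMA7A, a membrane semaphorin, had signals of 6.0, 8.4 and 7.0 in shCtrl and of 83.3, 98.2 and 107.2 in shXBP-1s. SEMA7A rose by 3.48 on the log2 scale (SE 0.19, adjusted p = 6.23e-06). Of the shCtrl arrays, 2 of 3 were well above background for it, and with normexp its log2 fold change was 0.27 and its call was lost. CD55, which shields cells from complement by breaking down its convertases, rose from signals of 432.1 to 442.9 in shCtrl to signals of 1358.3 to 1799.9 in shXBP-1s. Its log2 fold change was 1.58 (SE 0.05, adjusted p = 1.52e-06). CD59, which blocks the membrane attack complex, fell by 1.00 (SE 0.05, adjusted p = 6.26e-06). It lay at the 2-fold limit, and its call was lost in 8 of 22 alternatives, among them the 75th percentile over bright probes (-0.95) and leaving out shCtrl array 1 or shXBP-1s array 1 or 2 (-0.999, -0.99 and -0.984). MDGA1 fell by 1.41 (SE 0.07), the folate receptor FOLR1 by 1.33 (SE 0.05) and ULBP1, a ligand of the NKG2D receptor, by 1.23 (SE 0.07). The anchor that CD24 shares with these proteins thus went with differences in both directions, and the median of the list was -0.10.

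Of 19 tested genes of CD44 and hyaluronan, 2 were called, both higher, 7 rose and 2 fell without a minimum fold, and 10 did not pass. MSN, which links CD44 to actin, rose by 1.11 (SE 0.05, adjusted p = 2.63e-06), from signals between 2294.8 and 2460.9 to signals between 5784.3 and 6715.5. CEMIP, which degrades hyaluronan, rose by 2.45 (SE 0.10, adjusted p = 2.67e-06), from signals of 17.2, 16.5 and 15.3 to 121.5, 109.5 and 94.1. With normexp the CEMIP value was 0.30 and was not called. The hyaluronan synthase HAS3 rose by 0.92 (SE 0.10, adjusted p = 0.000169) and the hyaluronan-binding TNFAIP6 by 0.90 (SE 0.14, adjusted p = 0.00129), both under 2-fold. A second HAS3 probe gave -0.24 (SE 0.23, adjusted p = 0.434), so it did not show the rise.

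Of 14 tested partners and proteases of EPCAM, 1 was called, 7 rose, 2 fell and 5 did not pass. APH1B, a subunit of the gamma-secretase that cuts EPCAM within the membrane, rose by 1.26 (SE 0.08, adjusted p = 1e-05). Its signals were 154.0, 172.3 and 179.2 in shCtrl and 486.7, 502.6 and 472.9 in shXBP-1s. The claudin CLDN7, a partner of EPCAM, rose by 0.31 (SE 0.05, adjusted p = 0.00142), and the protease inhibitor SPINT2 fell by 0.68 (SE 0.05, adjusted p = 2.22e-05).

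Of 26 tested prominins and tetraspanins, which include relatives of PROM1 and CD9, 3 rose and 12 fell without a minimum fold, 11 did not pass and the median was -0.20. TSPAN7 was called lower, with signals of 8.9, 8.1 and 7.9 in shCtrl and of 5.0, 4.2 and 3.4 in shXBP-1s. It was not well above background on any shXBP-1s array, and limma on the measured signals gave an adjusted p of 0.00235. Against the lowest signal well above background on each shXBP-1s array, the shCtrl mean was 1.54-fold higher. That is not a strict lower limit, since a probe can fail the scanner's test at a higher signal, as HPN below did.

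Of 15 tested genes of the neurotrophins and NGFR signalling, 4 rose and 6 fell without a minimum fold, and 5 did not pass. limma called 0 at 2-fold, the methods' t-test with adjustment also called 0, and 11 had an unadjusted p below 0.05. The lowest was SORCS2, a sortilin-related receptor that pairs with NGFR, which fell by 0.95 (SE 0.07, adjusted p = 3.03e-05). SORT1, which encodes sortilin, fell by 0.79 (SE 0.07, adjusted p = 4.71e-05). TRAF6, an adaptor of NGFR, rose by 0.61 (SE 0.09, adjusted p = 0.00132). The median of the list was -0.30.

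Of 14 tested genes of LGR and R-spondin signalling, which include WNT target genes, 1 rose and 5 fell without a minimum fold, and 8 did not pass. limma called 0 at 2-fold, the methods' t-test with adjustment also called 0, and 9 had an unadjusted p below 0.05. OLFM4, a marker of the same intestinal cells as LGR5, rose by 0.73 (SE 0.17, adjusted p = 0.00925), and the ligand RSPO4 fell by 0.71 (SE 0.13, adjusted p = 0.00294). The probes of RSPO3, another R-spondin, disagreed. The brightest gave -0.15 (adjusted p = 0.395). The other was called lower (adjusted p = 3.12e-05 on the measured signals) and was well above background on no shXBP-1s array. Against the lowest signal that was so on each of these arrays, it was 2.83-fold lower, which is not a strict limit.

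Of 16 tested ligands, activators and adaptors of MET, 1 was called higher and 1 lower, 4 rose and 5 fell without a minimum fold and 7 did not pass. The ligand HGF had signals of 6.9, 3.4 and 4.4 in shCtrl, where 1 of 3 arrays was well above background, and of 13.3, 12.2 and 10.4 in shXBP-1s. Its log2 fold change was 1.08 (SE 0.31, adjusted p = 0.0237), and 0.42 within the shared scan. The call was lost in 9 of 21 alternatives. These included leaving out any array but shCtrl array 1, with log2 fold changes between 0.81 and 1.09, and in a further alternative, normexp, the value was -0.84. HPN, a protease that activates HGF, fell by 1.28 (SE 0.17, adjusted p = 0.000653). Its signals were 13.3, 15.3 and 18.8 in shCtrl and 8.0, 8.6 and 6.9 in shXBP-1s, where 1 of 3 arrays was well above background.

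Of 16 tested aldehyde dehydrogenases other than ALDH1A1, 2 rose and 5 fell without a minimum fold and 9 did not pass. ALDH5A1, of GABA breakdown, was called lower, with a fall of 1.24 (SE 0.07, adjusted p = 7.49e-06) from signals of 680.5, 641.7 and 653.1 to 385.2, 329.6 and 301.8. ALDH1A3, which makes retinoic acid as ALDH1A1 does, fell by 0.36 (SE 0.08, adjusted p = 0.00644). Its signals lay between 32381.8 and 35281.8 in shCtrl and between 30274.6 and 34167.4 in shXBP-1s. The mitochondrial ALDH1B1 rose by 0.60 (SE 0.10, adjusted p = 0.00227). The probes of ALDH7A1 disagreed, with -0.15 for the brightest and -1.76 and -1.74 for the others.

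Of 22 tested Polycomb genes other than BMI1, 1 rose and 12 fell without a minimum fold, 9 did not pass and the median was -0.19. PHC3, a subunit of Polycomb repressive complex 1, was called lower, with a fall of 1.16 (SE 0.06, adjusted p = 4.44e-06) from signals of 1925.0, 2340.0 and 2269.1 to 1243.9, 1166.5 and 1104.6. CBX7, the subunit that reads methylated histone H3, fell by 1.18 with its brighter probe (SE 0.08, adjusted p = 1.36e-05). The other CBX7 probe gave 0.26 (SE 0.10, adjusted p = 0.0846), so it did not pass and did not show the fall. RNF2, the catalytic subunit that BMI1 joins, is counted among the 12 by its brightest probe (-0.27, SE 0.08, adjusted p = 0.0331), while its other probe gave 0.86 (SE 0.05, adjusted p = 6.29e-06). EZH2, the methyltransferase of the second complex, fell by 0.37 (SE 0.09, adjusted p = 0.0119).

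Of 7 tested pluripotency factors, 1 rose and 3 fell without a minimum fold. SOX2 was called lower, with a fall of 1.03 (SE 0.17, adjusted p = 0.00185) from signals of 13.7, 17.5 and 15.7 to 10.9, 10.3 and 7.0. The call was lost in 6 of 22 alternatives. Without shCtrl array 2 or shXBP-1s array 3 the log2 fold change was -0.97 and -0.91, with the 75th percentile over bright probes -0.97, with the scan as a block -0.94 and with normexp and quantile normalization -0.17. With normexp alone it was -1.04 (adjusted p = 0.451, 0.00106 to 0.451 over the alternatives). MYC rose by 0.66 (SE 0.05, adjusted p = 4e-05), and NANOG fell by 0.99 (SE 0.10, adjusted p = 0.000108).

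Of 18 tested further surface markers of stem-like cells, 4 rose and 2 fell without a minimum fold and 12 did not pass. The laminin receptor subunit ITGA6 rose by 0.87 (SE 0.05, adjusted p = 5.57e-06), ALCAM by 0.70 (SE 0.05, adjusted p = 2.99e-05) and CD47, which inhibits phagocytosis, by 0.51 (SE 0.05, adjusted p = 0.000111). A second ITGA6 probe was called, at 1.01 (SE 0.08, adjusted p = 4.11e-05). DCLK1, counted as not passing by its brightest probe (0.21), had other probes called in opposite directions, at 1.64 (adjusted p = 0.0262) and -1.47 (adjusted p = 0.0302). The receptor KIT was called lower, with signals of 6.3, 6.8 and 8.6 in shCtrl and of 3.1, 1.6 and 5.3 in shXBP-1s, where no array was well above background. Against the lowest signal well above background on each of these arrays, KIT was 1.34-fold lower, which is not a strict limit. The adjusted p of KIT, from limma on the measured signals, was 0.0298. Its call was lost in 10 of 21 alternatives, with log2 fold changes as near to 0 as -0.07 with normexp and quantile normalization, and the methods' t-test called 0 genes of this list. The fits that ended it included those without shCtrl array 2 or 3 or shXBP-1s array 1 or 2, with values between -1.60 and -1.08.

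**Figure D5:**
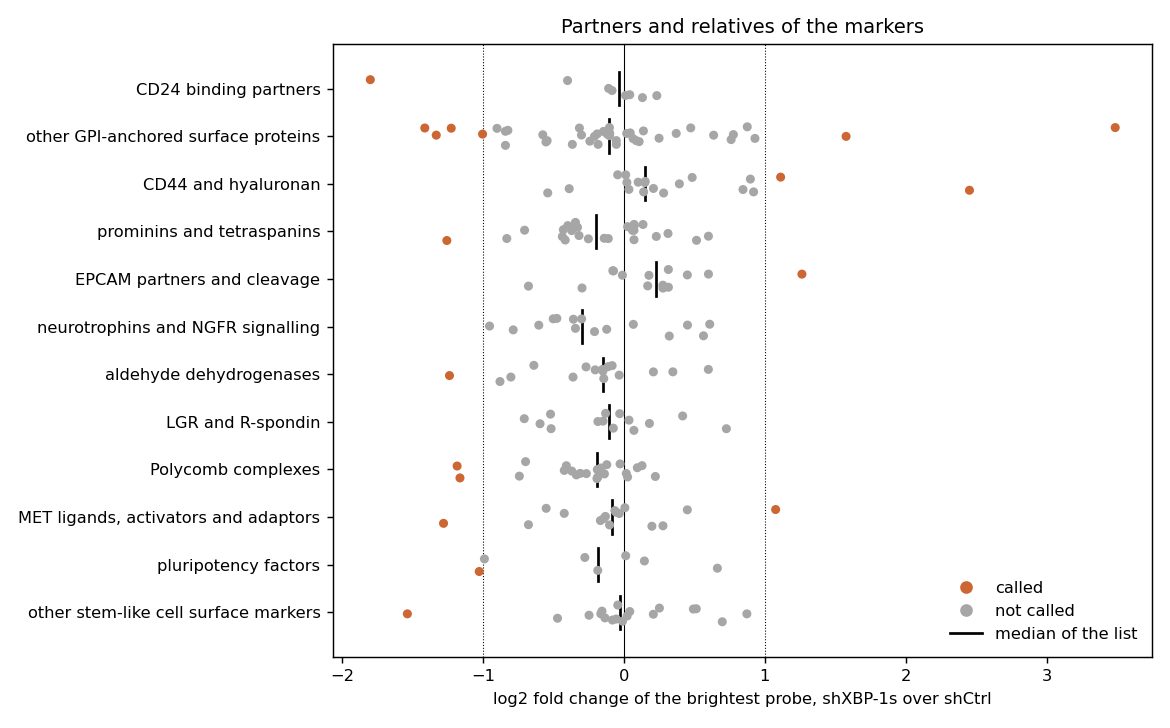
Log2 fold change, shXBP-1s over shCtrl (horizontal axis), of the brightest tested probe of each partner or relative of the markers, by list (vertical axis). Each point is a gene, orange points were called, black lines are list medians and dotted lines mark 2-fold. Most genes lie within 2-fold, with SEMA7A (3.48) and CEMIP (2.45) furthest to the right.

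Markers of other cell types were read on the same arrays. Every leukocyte, endothelial, fibroblast and erythroid marker on the array was well above background on all 6 arrays, and none was at 0. Of all spots of an array, 82.1% to 84.8% were well above background. The summed signal of the 5 leukocyte markers lay between 3165.5 and 4925.1 in shCtrl and between 2683.2 and 3526.4 in shXBP-1s, and that of the 4 fibroblast markers between 648.4 and 789.8 and between 482.2 and 619.2. Single markers differed from these sums. The leukocyte sum was mostly CD14 (log2 fold change -0.84), while CD68 rose by 0.65 (adjusted p = 5.6e-05), and the fibroblast sum was mostly PDGFRB, which was called lower (-1.28), while LUM was called higher (1.94, adjusted p = 4.25e-06). The sum of the 3 endothelial markers lay between 149.9 and 177.8 in shCtrl and between 193.6 and 255.5 in shXBP-1s. The 2 erythroid markers summed to 565.4 to 884.4 in shCtrl and 820.0 to 960.4 in shXBP-1s. The part of these markers in the values of KIT and the other surface genes was not tested.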

How the data were processed

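For each of the 6 arrays the authors deposited Agilent Feature Extraction 11.0.1.1 output, in which intensity is the background-subtracted signal, and a table of log2 values with equal quartiles, used here as an alternative. The submitters' processing notes name RMA, and the labels describe NimbleGen labelling although the array is Agilent's. Flagged spots (230 to 377 per array) were left out, the 75th percentile of log2 intensity was subtracted per array, and spots of a probe were averaged. Of 34127 probes, 27624 were tested, 2-sided, in R 4.3.3 with limma 3.58.1 (lmFit, eBayes with trend) and Benjamini-Hochberg adjustment over all of them. The number of arrays limits precision, and 3 against 3 allow no exact permutation p below 0.1. Members and lists were chosen with earlier results of these data known.

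The text names every member, the 5 genes nearest to CD24, XBP1 and up to 4 called genes per list, except results that are not reported here. Alternatives covered background, scaling, filters, thresholds, test, blocks and left-out arrays. Normexp, with an offset of 50, used median spot signals, since mean signals were not used here. The fit was tested on simulated data. Annotation on the arrays is hg19, so GRCh38.p14 coordinates are given for promoters only.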

Additional observations from a re-analysis of the deposited data

How the results depend on the processing

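The set was built on this comparison, so the member calls below describe how they depend on the processing and are no test of the members. The 3 calls held under every alternative with a 2-fold or 1.5-fold minimum except normexp with quantile normalization, where 2 remained and NGFR was lost. Without a minimum fold 8 member probes had an adjusted p below 0.05 (3 higher and 5 lower). Leaving out each array gave 3 to 3 member calls and 15 to 20 called partners and relatives, beside 18 with all arrays. That count of 18 was 9 with normexp, 4 with normexp and quantile normalization, 49 at 1.5-fold and 109 without a minimum fold, and between 13 and 19 under the other alternatives. Over all tested probes the calls numbered 1354, and 473, 357, 4129 and 11516 under the same settings. Normexp moved the median log2 fold change of all probes by -0.39. The normexp offset of 50 exceeds the signal of many dim genes named here, and HGF, at signals of 3.4 to 13.3, was -0.84 with normexp (adjusted p = 0.458, and 0.00159 to 0.458 over its alternatives). The cause was not tested. The replicate numbers did not pair the samples, since same-numbered deviations correlated at -0.016, 0.117 and -0.116. With the replicate block, 3 member probes and 18 partners were called. With the scan as a block, 3 and 17 were called. The distance of low signals from background limits PROM1, LGR5, TSPAN7, KIT, HGF and HPN.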
